A study of Mus musculus with 6 samples.

Results

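Voltage-gated sodium, calcium and potassium channels open and close with the membrane potential and carry the currents of the action potential, of calcium entry and of repolarization. Each consists of a pore-forming alpha subunit, or several of them, often joined by auxiliary subunits that alter gating and delivery to the membrane. In the striatum these channels set how projection neurons and interneurons fire, and many are known to change in level as neurons mature around birth. The genes described here are 43 named members of these families and of the related Hcn family, whose channels carry a mixed cation current that opens on hyperpolarization. They were chosen by name, with earlier results of these data known, and each symbol matched 1 row of a table of 47062 genes. All 43 had a mean level high enough to be tested.

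RNA came from the striatum of newborn mice, dissected with the subventricular zone, at postnatal day 0 and on a background mixed from C57BL/6J, 129S6 and CD1. The 3 mutant libraries carried Drd2-Cre with Sp9Flox/Flox, and the 3 control libraries were from Sp9Flox/Flox littermates without Cre, so both groups shared the floxed alleles of Sp9, which encodes a zinc finger transcription factor. In Drd2-Cre mice the recombinase is driven by the control region of Drd2, the dopamine receptor gene of indirect pathway projection neurons. No group had Drd2-Cre without the floxed alleles, so the deletion and the Cre transgene cannot be told apart. The labels do not say whether a library was 1 animal, so the spread behind each p-value is that of libraries, which may be technical.

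The libraries held 16237107 to 19457765 fragments in genes. Sp9 had 8.37, 7.93 and 9.67 FPKM (fragments scaled for transcript length and for library size) in the mutants and 20.1, 19.0 and 17.3 in the controls. The groups did not overlap, but Sp9 was just outside the threshold (adjusted p = 0.0567, limma). Adora2a, an adenosine receptor gene of indirect pathway neurons, averaged 4.11 ± 1.18 FPKM in the mutants and 44.3 ± 3.26 in the controls (SD, n = 3 each; adjusted p = 0.00852, limma). Of 21 striatal projection neuron genes none was at 0 in all libraries, and their summed FPKM was 2008 to 2141 in the mutants and 2235 to 2334 in the controls. Control replicate 3 was the only library with a high level of the Y-linked gene Ddx3y, at 16.7 FPKM. It had 0.0604 FPKM of the X-linked gene Xist, which was at least 186 FPKM in every other library. The groups were thus not balanced for these sex-linked genes, and sex was not in the model.

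No channel gene passed an adjusted p of 0.05 in the comparison of mutant with control. The test was limma on log2(FPKM + 0.5), adjusted by the Benjamini-Hochberg method over 16666 genes, of which 0.0600% passed. The lowest adjusted p among the members was 0.795. At an unadjusted p under 0.05 there was 1 member, Kcna5, which is 2.33% of the 43, beside 5.65% of all genes tested (2.65% higher). None reached the study's own rule of a 2-fold change with an unadjusted p of at most 0.05, which 0.342% of all genes met. In 4 members the mutant and control libraries did not overlap, which is 9.30% beside 11.4% of all genes. Kcna5, Kcna2 and Kcnd3 lay higher in the mutants and Cacnb2 lower, where 5.33% of all genes were apart upwards and 6.05% downwards. Estimates were above 0 for 19 members and below 0 for 24, with a median log2 fold change of -0.04, against a median of -0.00016 over all genes tested. The authors' count columns, which hold fragments scaled by 1 factor per library and are called scaled counts here, also gave no member past the adjusted threshold, which 0.143% of 16125 genes passed. There 5 members, or 11.6%, had an unadjusted p under 0.05, beside 6.42% of all genes (Kcna5, Scn2a, Kcnh1 and Cacna1g higher, Cacna1i lower), and 6 members, or 14.0%, had groups that did not overlap, beside 1928 of the 16125 genes.

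How far the channel genes could differ is given by their intervals. For 33 of 43 members, or 76.7%, the 95% interval of the difference lay within 1.5-fold either way, as it did for 71.2% of all genes tested. It lay within 2-fold for 41, or 95.3%, beside 88.1% of all genes. The 2 others were Kcna5 and the calcium channel beta subunit gene Cacnb4. On scaled counts the log2 intervals of Scn4b (-1.08 to 0.16) and Kcnc2 (-0.014 to 1.03) also went past 2-fold. So did that of Kcna5 (0.33 to 1.41), while that of Cacnb4 was -0.14 to 0.09. A 2-fold difference is thus not excluded for these low genes. A p that misses the threshold does not show equal levels, and in bulk tissue fewer cells of a type and less RNA per cell cannot be told apart.

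**Figure D1:**
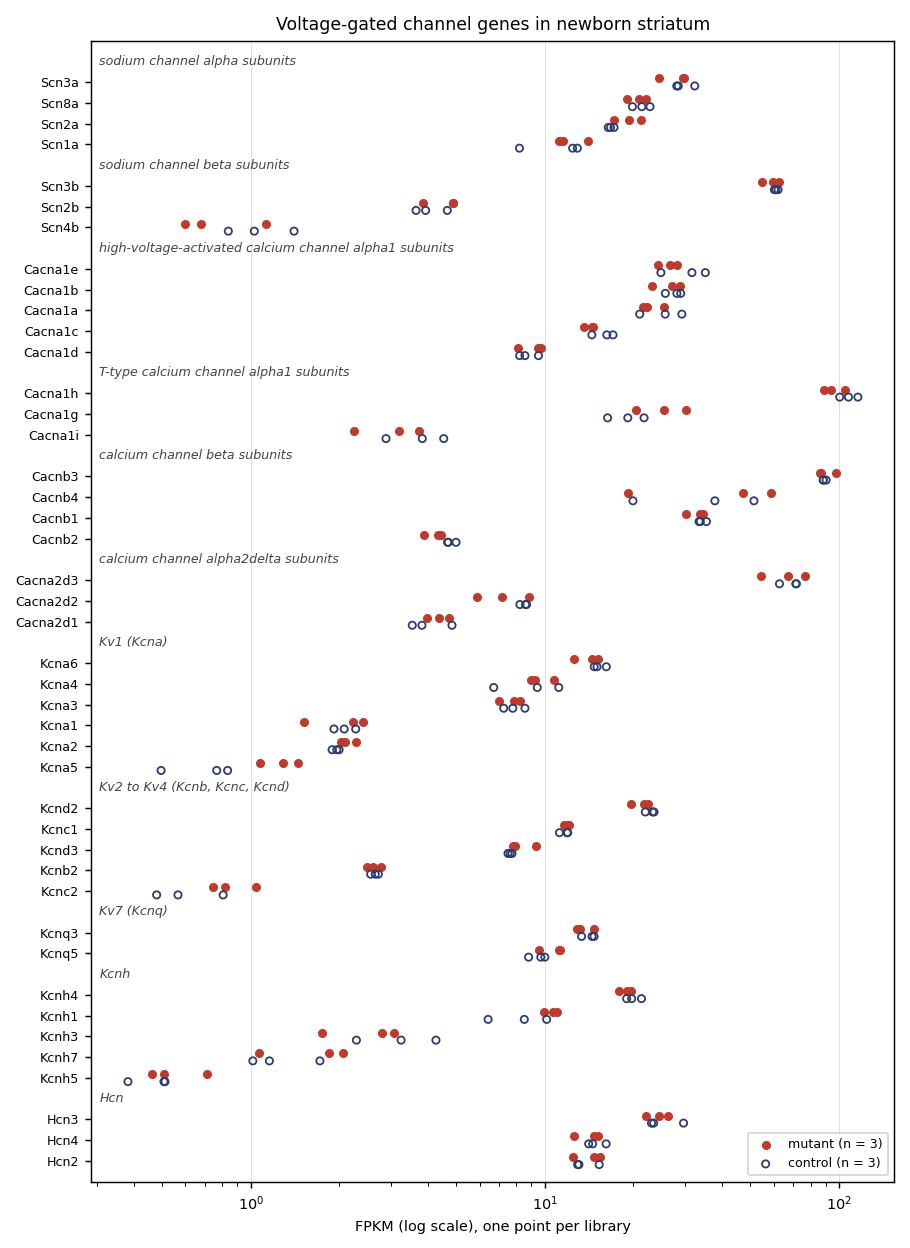
FPKM of the 43 channel genes on a log axis, by family, with filled points for the 3 mutant and open points for the 3 control libraries, and genes of a family ordered by their control mean. Levels run from under 1 FPKM (Kcnh5, Kcnc2, Kcna5) to about 108 FPKM (Cacna1h), and in 39 of 43 genes the 2 sets of points overlap.

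Levels of the 43 genes ranged widely. In the controls 23 members averaged at least 10 FPKM and 3 averaged under 1 FPKM. By mean control level Cacna1h came first, followed by Cacnb3, Cacna2d3 and Scn3b, and Kcna5, Kcnc2 and Kcnh5 came last. Their places among all tested genes ran from the percentile 2.05 for Kcnh5 to 94.2 for Cacna1h. Behind these levels stood between 24 and 8770 fragments per gene and library, so that the genes under 1 FPKM rested on few fragments.

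Among the pore-forming sodium channel subunits Scn3a, which is known for its high level before birth, had the highest FPKM. It had 29.6, 24.5 and 29.6 FPKM in the mutants and 32.3, 28.1 and 28.4 in the controls, and the groups overlapped. Scn8a, the main subunit of the axon initial segment in adult neurons, averaged 20.7 ± 1.55 FPKM in the mutants and 21.3 ± 1.46 in the controls (SD, n = 3 each). Scn1a, which is known for its role in inhibitory neurons, had 14.0, 11.2 and 11.5 FPKM in the mutants and 12.4, 8.20 and 12.9 in the controls. Control replicate 2 was the low library for Scn1a, and the groups overlapped.

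Scn2a, a subunit of young axons, had 19.3, 21.2 and 17.2 FPKM in the mutants and 17.2, 16.4 and 16.7 in the controls. The lowest mutant library lay just under the highest control. The log2 fold change was 0.18 ± 0.08 (SE), with an unadjusted p of 0.0675 and an adjusted p of 0.860 (limma). In scaled counts Scn2a had 2178, 2327 and 1916 in the mutants and 1891, 1773 and 1795 in the controls. There the groups did not overlap, and the log2 fold change was 0.23 (unadjusted p = 0.0124, adjusted p = 0.575, limma).

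These 3 genes lie together on chromosome 2 (GRCm38, GENCODE M21), with Scn3a at chr2:65457118-65567627, Scn2a at chr2:65620771-65767447 and Scn1a at chr2:66270778-66440840. The stretch spans 984 kb. Scn3a made up 34.8% ± 2.55 of the summed FPKM of the 4 listed alpha subunits in the mutants and 37.6% ± 2.08 in the controls (SD, n = 3 each). Scn2a made up 24.1% ± 3.37 in the mutants and 21.3% ± 1.14 in the controls. The sum itself was 80.1 ± 4.62 FPKM in the mutants and 78.9 ± 5.62 in the controls. Outside the 43, Scn9a, a subunit best known from sensory neurons, had 18.5 ± 3.05 FPKM in the mutants and 18.2 ± 4.24 in the controls; it was named after its value was seen.

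Of the auxiliary sodium channel subunits Scn3b dominated, with 62.7, 59.5 and 54.6 FPKM in the mutants and 62.1, 60.3 and 61.0 in the controls. Its groups overlapped, and the interval of its log2 difference was -0.20 to 0.09. Scn2b and Scn4b, whose proteins attach to the alpha subunit through a disulfide bond, lie 8.32 kb apart on chromosome 9. Scn2b averaged 4.53 ± 0.600 FPKM in the mutants and 4.08 ± 0.522 in the controls (SD, n = 3 each). Scn4b, which is abundant in adult striatal projection neurons, was still low at birth, with 0.599, 0.679 and 1.13 FPKM in the mutants and 1.40, 0.840 and 1.03 in the controls. The log2 fold change of Scn4b was -0.30 ± 0.23 (SE, unadjusted p = 0.239, adjusted p = 0.888, limma), with an interval of -0.85 to 0.26.

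**Figure D2:**
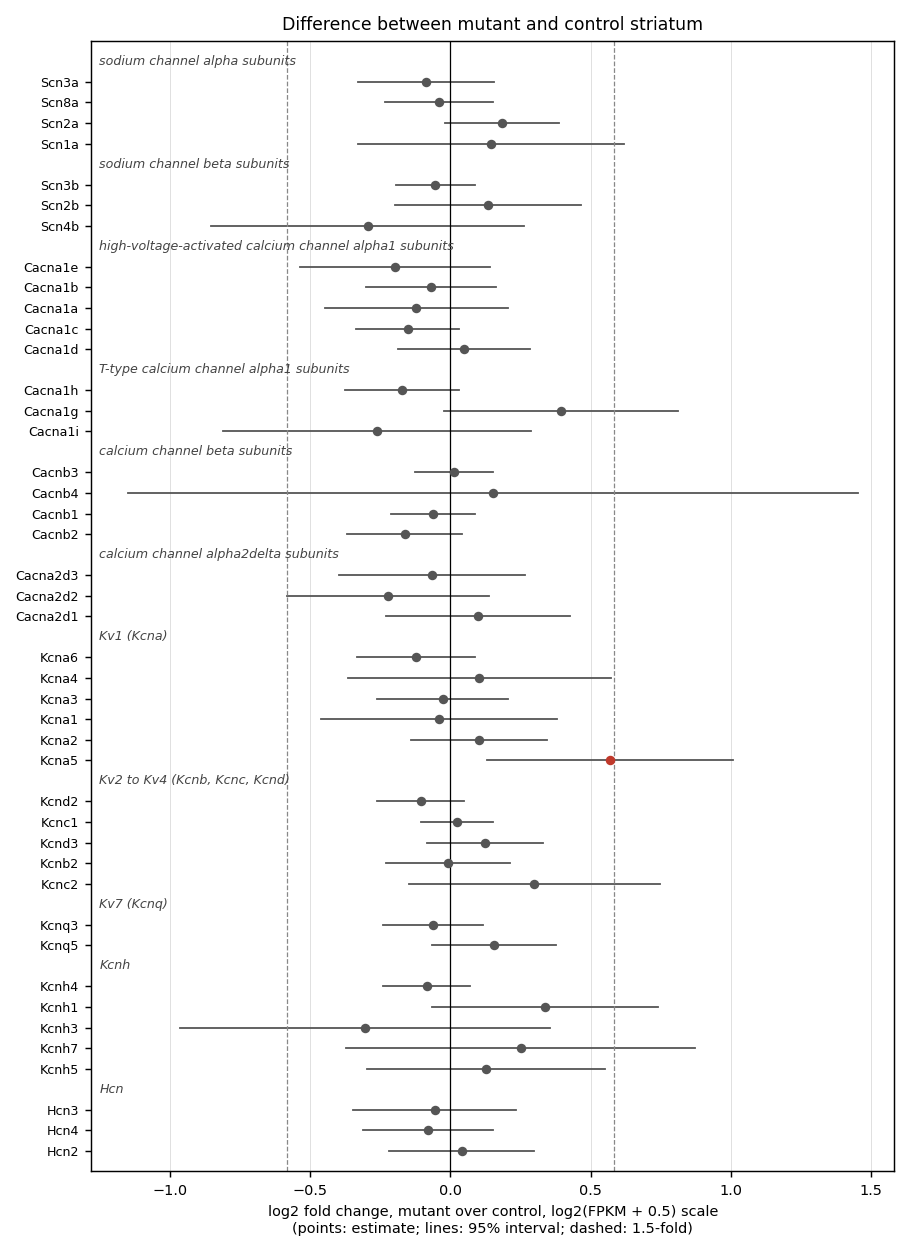
Log2 fold change of each channel gene, mutant over control, on the log2(FPKM + 0.5) scale, with its 95% interval as a line and dashed marks at 1.5-fold. Kcna5, the red point at 0.57, is the 1 member whose interval leaves out 0, and Cacnb4 has the widest interval, from -1.15 to 1.45.

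Among the calcium channels that open at high voltage, 4 of 5 alpha subunits had estimates below 0 and none had an unadjusted p under 0.05. Cacna1e, the R-type subunit, had 28.1, 24.2 and 26.7 FPKM in the mutants and 35.1, 24.8 and 31.6 in the controls, with groups that overlapped. Cacna1c, an L-type subunit, had 14.5, 13.6 and 14.6 FPKM in the mutants and 17.1, 14.5 and 16.2 in the controls. The highest mutant library of Cacna1c lay just above the lowest control, and the log2 fold change was -0.15 ± 0.07 (SE, unadjusted p = 0.0866, adjusted p = 0.881, limma). With single libraries dropped, the log2 fold change of Cacna1e ran from -0.34 without control replicate 2 to -0.09 without control replicate 1. That of Cacna1c ran from -0.22 to -0.10 on dropping the same libraries. Cacna1a and Cacna1b, the P/Q-type and N-type subunits of transmitter release, averaged 23.1 ± 2.00 and 26.3 ± 2.87 FPKM in the mutants, against 25.3 ± 4.12 and 27.6 ± 1.703 in the controls (SD, n = 3 each). Cacna1d, the other L-type subunit, averaged 9.09 ± 0.876 FPKM in the mutants and 8.76 ± 0.675 in the controls.

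The T-type subunits open near the resting potential. Cacna1h (chr17:25374285-25433783, where Tpsg1 overlaps it) had the highest level of all 43 genes, with 105, 88.8 and 93.9 FPKM in the mutants and 108, 101 and 116 in the controls. The highest mutant library lay between the controls, and the log2 fold change was -0.17 ± 0.08 (SE, unadjusted p = 0.0833, adjusted p = 0.874, limma). Cacna1g, a second T-type subunit, had 25.5, 30.2 and 20.4 FPKM in the mutants and 21.7, 16.3 and 19.1 in the controls. Only mutant replicate 3 fell within the range of the controls for Cacna1g. Its log2 fold change was 0.39 ± 0.17 (SE, unadjusted p = 0.0604, adjusted p = 0.858, limma). With single libraries dropped, the estimate for Cacna1g ran from 0.26 without mutant replicate 2 to 0.54 without mutant replicate 3. As a share of the T-type FPKM, Cacna1h was 77.1% ± 3.37 in the mutants and 82.6% ± 1.06 in the controls (SD, n = 3 each), and no mutant share reached the lowest control share. In FPKM the groups were apart for 11.4% of all genes tested, and no such figure was worked out for shares. The share of Cacna1g was 20.4% ± 3.97 in the mutants and 14.6% ± 1.63 in the controls.

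Cacna1i, the third T-type subunit (chr15:80287238-80398279), gave different pictures on the authors' 2 scales. On FPKM it had 3.19, 2.24 and 3.74 in the mutants and 2.89, 4.53 and 3.83 in the controls, with overlapping groups and a log2 fold change of -0.26 ± 0.22 (SE, unadjusted p = 0.286, adjusted p = 0.888, limma). In scaled counts it had 435, 412 and 377 in the mutants and 535, 531 and 484 in the controls. All mutant libraries were below all controls on that scale, and the log2 fold change was -0.34, with an interval of -0.52 to -0.16. The unadjusted p was 0.00246 and the adjusted p 0.272 (limma), the lowest adjusted p of any member under any setting tried.

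How often the deposited columns part in this way is given by the scaled count divided by the FPKM in each library. It differed by less than 1.1-fold between libraries in 30 of 43, and the median ratio of the highest to the lowest library was 1.04, against 1.05 over all genes. It differed by more than 1.5-fold in 2 members, beside 5.36% of all genes. These were Cacna1i, at 1.84-fold, and Cacnb4, at 2.99-fold. Kcna4 and Cacna1a came next, at 1.41-fold and 1.40-fold.

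**Figure D3:**
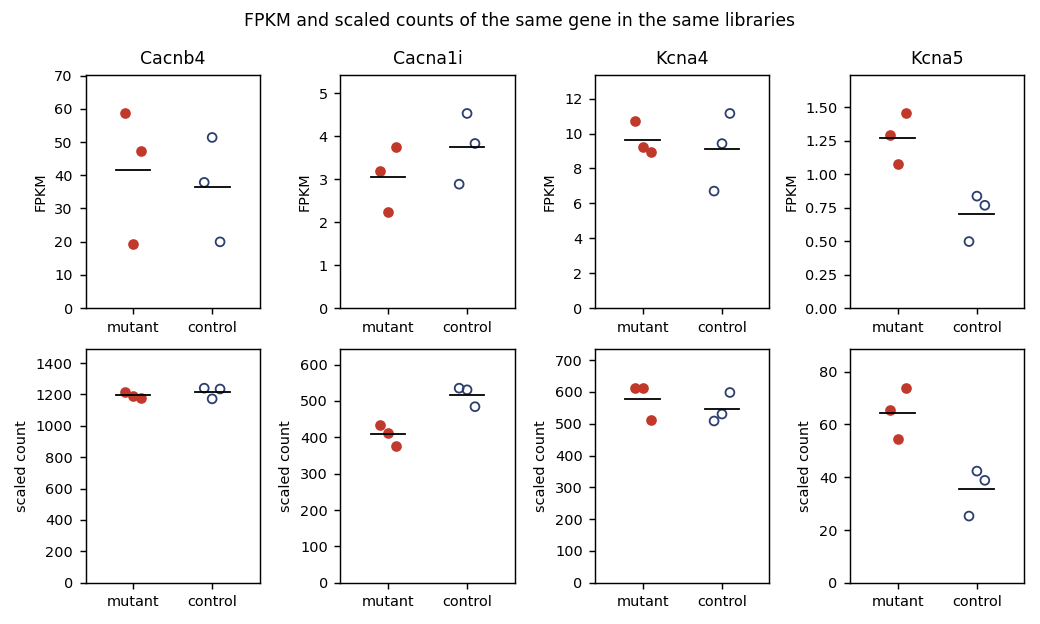
FPKM (top) and scaled counts (bottom) of Cacnb4, Cacna1i, Kcna4 and Kcna5, with mutant libraries on the left, control libraries on the right, and a bar at the mean of each 3. Cacnb4 spreads 3.05-fold on FPKM and 1.06-fold on scaled counts, Cacna1i separates on scaled counts only, and Kcna5 separates on both.

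Cacnb4 encodes a beta subunit that brings calcium channels to the membrane (chr2:52428320-52676831). It had 58.6, 19.2 and 47.3 FPKM in the mutants and 37.8, 51.4 and 19.9 in the controls, so that mutant replicate 2 and control replicate 3 were the low libraries and the groups overlapped fully. In scaled counts the same libraries had 1215, 1188 and 1179 in the mutants and 1240, 1172 and 1235 in the controls. The log2 fold change on scaled counts was -0.03, with an interval of -0.14 to 0.09, and on FPKM 0.15, with an interval of -1.15 to 1.45. GENCODE M21 lists 6 transcripts of Cacnb4, between 208 and 8225 bases long, and which of them the authors' lengths came from is not given in the sources used here. RefSeq places its start sites in 3 windows whose outermost members lie 118 kb apart. The windows at both ends, 250 bases before to 50 after the start site on GRCm38.p6, are shown because its FPKM and scaled counts diverge; the part of transcript choice in that was not tested. Both are on the minus strand and read 5′ to 3′. Capitals mark GC boxes, GGGCGG or its reverse complement CCGCCC, the element that proteins of the Sp family bind.
Cacnb4, upstream start, chr2:52676094-52676393: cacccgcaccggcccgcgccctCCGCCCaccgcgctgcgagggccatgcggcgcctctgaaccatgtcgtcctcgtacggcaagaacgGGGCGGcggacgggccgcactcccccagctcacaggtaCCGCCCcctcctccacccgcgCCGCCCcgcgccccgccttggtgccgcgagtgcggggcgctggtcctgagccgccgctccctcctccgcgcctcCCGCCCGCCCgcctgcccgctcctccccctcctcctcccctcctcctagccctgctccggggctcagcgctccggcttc
Cacnb4, downstream start, chr2:52558562-52558861: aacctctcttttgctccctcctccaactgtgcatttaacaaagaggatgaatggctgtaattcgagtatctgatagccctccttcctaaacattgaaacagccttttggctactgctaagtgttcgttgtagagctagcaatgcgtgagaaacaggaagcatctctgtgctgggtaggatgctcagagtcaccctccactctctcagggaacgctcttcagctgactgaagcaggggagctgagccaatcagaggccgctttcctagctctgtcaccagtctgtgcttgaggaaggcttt
The upstream window held 6 GC boxes, overlapping ones counted, at a GC content of 78.3%, and the downstream window held none at 49.7%. The remaining window, chr2:52675810-52676109, partly overlaps the upstream one and held none either, at 69.7%. A match describes these letters and is not a binding site.

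The other beta subunits had small estimates. Cacnb3, the second most abundant of the 43, had 97.3, 86.2 and 86.6 FPKM in the mutants and 88.4, 88.4 and 90.4 in the controls, with an interval of -0.12 to 0.15 on the log2 scale. Cacnb1, best known as the beta subunit of skeletal muscle, averaged 32.8 ± 2.22 FPKM in the mutants and 34.2 ± 1.07 in the controls (SD, n = 3 each). Its groups overlapped on FPKM but not on scaled counts, with 2123, 2169 and 1967 in the mutants and 2207, 2171 and 2313 in the controls. The log2 fold change there was -0.097 (unadjusted p = 0.104, adjusted p = 0.855, limma). Cacnb2, the main beta subunit of heart muscle, had 4.35, 4.44 and 3.88 FPKM in the mutants and 4.67, 4.99 and 4.70 in the controls. All 3 mutant libraries of Cacnb2 lay below the controls, by a log2 fold change of -0.16 ± 0.08 (SE, unadjusted p = 0.0974, adjusted p = 0.884, limma). On scaled counts the groups of Cacnb2 overlapped.

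The alpha2delta subunits, which sit on the outside of calcium channels and raise their number at the membrane, were led by Cacna2d3. It had 66.8, 76.8 and 54.4 FPKM in the mutants and 62.8, 71.3 and 71.6 in the controls, and mutant replicates 2 and 3 were the highest and the lowest of all 6 libraries. Cacna2d3 was 84.9% ± 1.05 of the summed FPKM of the 3 listed genes in the mutants and 84.5% ± 0.755 in the controls (SD, n = 3 each). Cacna2d2 averaged 7.30 ± 1.504 FPKM in the mutants and 8.50 ± 0.238 in the controls. Cacna2d1, a target of gabapentin, averaged 4.36 ± 0.373 FPKM in the mutants and 4.07 ± 0.680 in the controls.

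Of the Kcna genes, whose Kv1 channels dampen firing, Kcna5 stood out. It is known for a fast repolarizing current of heart muscle. Kcna5 (ENSMUSG00000045534, chr6:126532551-126535412) had 1.29, 1.07 and 1.45 FPKM in the mutants and 0.496, 0.835 and 0.767 in the controls. Every mutant library lay above every control. The log2 fold change was 0.57 ± 0.18 (SE), with an interval of 0.13 to 1.01, an unadjusted p of 0.0199 and an adjusted p of 0.795 (limma). With 3 libraries a side an exact permutation test (two-sided) cannot go below 0.1. Any gene whose groups do not overlap reaches that value, Kcna5 among them, so the test adds nothing to the lack of overlap. The groups were apart for 11.4% of all genes tested. In scaled counts Kcna5 had 65.4, 54.3 and 73.8 in the mutants and 25.3, 42.3 and 38.8 in the controls, with a log2 fold change of 0.87 (unadjusted p = 0.00583, adjusted p = 0.416, limma). These values rest on 24 to 67 fragments per library, and a mean FPKM of at least 1 would leave the gene untested. The interneuron and cortical marker genes given at the end also had higher estimates in the mutants. Estimates were above 0 for 6 of 9 direct pathway, 8 of 10 astrocyte and radial glia, 5 of 7 microglia and 5 of 8 vessel genes tested. They were below 0 for 6 of 9 oligodendrocyte genes and for the other 3 direct pathway genes. Of these, Isl1 had an unadjusted p of 0.00429 (adjusted p = 0.654, limma). The median log2 fold change over all genes tested was -0.00016. The part of those cell types in this difference was not tested.

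Kcna5 lies beside Kcna1 and Kcna6 on chromosome 6, with 105 kb between Kcna5 and Kcna1 and 61.9 kb between Kcna1 and Kcna6. Kcna1, a subunit of axons, averaged 2.05 ± 0.469 FPKM in the mutants and 2.09 ± 0.178 in the controls (SD, n = 3 each). Kcna6, the most abundant Kcna gene here, had 15.2, 14.4 and 12.5 FPKM in the mutants and 16.2, 14.7 and 15.0 in the controls, and its groups overlapped. The RefSeq start windows of Kcna5 and Kcna6 (GRCm38.p6, minus strand, 5′ to 3′) are shown because these neighbours had estimates of opposite sign. Neither holds a GC box, so no letter is in capitals.
Kcna5, chr6:126535506-126535805: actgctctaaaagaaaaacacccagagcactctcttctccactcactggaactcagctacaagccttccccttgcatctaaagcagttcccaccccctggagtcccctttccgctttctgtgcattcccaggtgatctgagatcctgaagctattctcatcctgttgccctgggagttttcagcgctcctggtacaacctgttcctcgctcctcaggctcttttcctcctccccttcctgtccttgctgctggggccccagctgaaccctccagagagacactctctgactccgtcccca
Kcna6, chr6:126740625-126740924: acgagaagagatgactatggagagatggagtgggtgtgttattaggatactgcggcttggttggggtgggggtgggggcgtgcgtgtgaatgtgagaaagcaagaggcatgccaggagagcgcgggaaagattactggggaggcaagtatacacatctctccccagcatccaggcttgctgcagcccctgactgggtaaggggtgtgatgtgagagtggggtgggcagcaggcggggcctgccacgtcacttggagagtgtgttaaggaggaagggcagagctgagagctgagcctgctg
RefSeq start windows were at hand for 33 of the 43 genes, and 22 of those, or 66.7%, had a GC box on either strand in at least 1 window. Of 10786 tested genes with a window, 68.8% had one.

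The remaining Kcna genes had small estimates. Kcna4, an A-type subunit that inactivates quickly, averaged 9.64 ± 0.965 FPKM in the mutants and 9.09 ± 2.24 in the controls (SD, n = 3 each). Kcna3, also known from lymphocytes, averaged 7.70 ± 0.658 FPKM in the mutants and 7.86 ± 0.659 in the controls. Kcna2, which pairs with Kcna1 in axons, had 2.02, 2.09 and 2.28 FPKM in the mutants and 2.00, 1.89 and 1.96 in the controls. The groups of Kcna2 did not overlap, but its log2 fold change was only 0.10 ± 0.10 (SE, unadjusted p = 0.342, adjusted p = 0.907, limma).

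**Figure D4:**
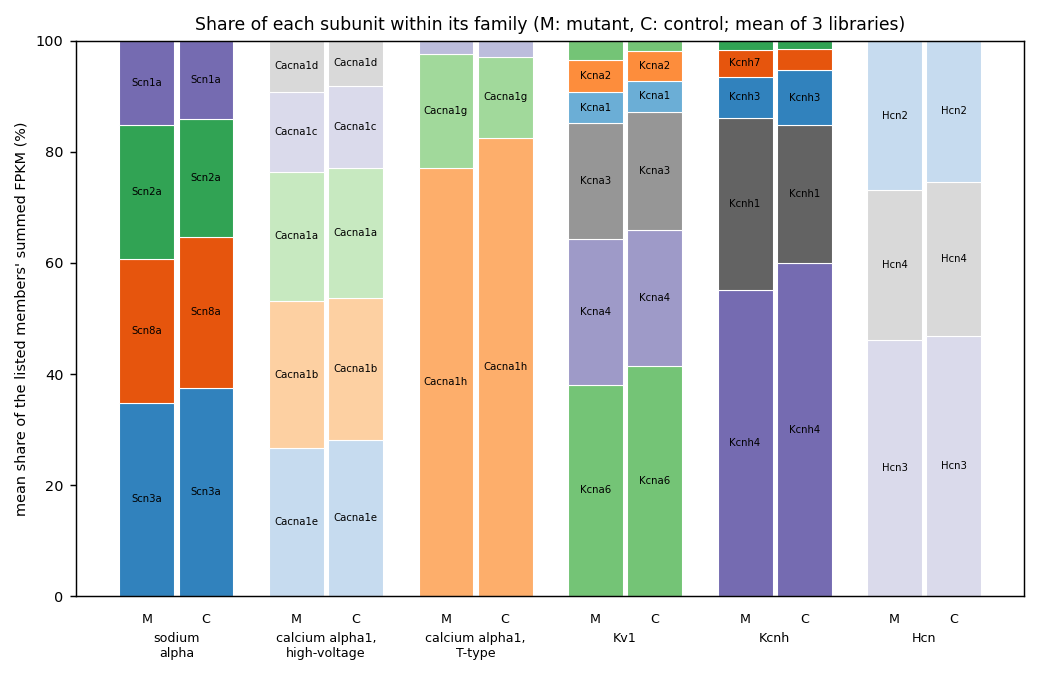
Share of each gene in the summed FPKM of the listed members of its family, as the mean of 3 mutant (M, left) and 3 control (C, right) libraries, for 6 families. Scn3a, Cacna1h, Kcna6, Kcnh4 and Hcn3 hold the largest shares among the listed members in both groups, and Cacna1e and Cacna1b have nearly equal shares of the listed high-voltage calcium channels.

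The A-type subunit Kcnd2, which acts in dendrites, led the Kcnb, Kcnc and Kcnd genes. It had 21.7, 22.4 and 19.6 FPKM in the mutants and 21.95, 23.5 and 23.2 in the controls, with groups that overlapped. Kcnd3, its relative, had 7.82, 7.93 and 9.36 FPKM in the mutants and 7.50, 7.62 and 7.74 in the controls. These groups did not overlap, and mutant replicate 3 stood apart from the other 5 libraries. The log2 fold change of Kcnd3 was 0.12 ± 0.08 (SE, unadjusted p = 0.193, adjusted p = 0.888, limma). Kcnc1, a subunit of fast-spiking neurons, was among the steadiest members, with 11.9 ± 0.276 FPKM in the mutants and 11.7 ± 0.415 in the controls (SD, n = 3 each) and an interval of -0.10 to 0.15. Kcnc2, another such subunit, had 0.821, 0.747 and 1.04 FPKM in the mutants and 0.479, 0.807 and 0.566 in the controls, with an unadjusted p of 0.152 (adjusted p = 0.888, limma). Control replicate 2 lay within the mutant range of Kcnc2. The delayed rectifier gene Kcnb2 averaged 2.63 ± 0.148 FPKM in the mutants and 2.64 ± 0.0798 in the controls.

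The Kcnq channels carry the M-current, which muscarinic receptors shut. Kcnq3 averaged 13.6 ± 0.984 FPKM in the mutants and 14.2 ± 0.733 in the controls, and Kcnq5 averaged 10.7 ± 0.984 FPKM in the mutants and 9.50 ± 0.619 in the controls (SD, n = 3 each).

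Of the Kcnh genes, the ether-a-go-go relatives, Kcnh4 had the highest level, with 19.6, 19.0 and 17.8 FPKM in the mutants and 21.3, 19.0 and 19.7 in the controls. Kcnh1, the ether-a-go-go channel itself, had 11.01, 9.97 and 10.6 FPKM in the mutants and 10.1, 6.42 and 8.52 in the controls. Mutant replicate 2 lay just under the highest control for Kcnh1. Its log2 fold change was 0.34 ± 0.16 (SE, unadjusted p = 0.0849, adjusted p = 0.874, limma), and on scaled counts it was 0.35 (unadjusted p = 0.0391, adjusted p = 0.719). Kcnh1 is overlapped by Hhat, and fragments of the 2 genes cannot be told apart where strand was not used. Within the family, Kcnh4 took 55.2% ± 1.25 of the FPKM in the mutants and 59.9% ± 0.823 in the controls, and Kcnh1 took 30.9% ± 1.59 in the mutants and 24.9% ± 3.90 in the controls (SD, n = 3 each). The shares of both genes did not overlap between groups, and they sum to a fixed total with the other 3 listed genes. In FPKM the groups were apart for 11.4% of all genes tested, and no such figure was worked out for shares. Kcnh3, Kcnh5 and Kcnh7 averaged 2.54 ± 0.693, 0.559 ± 0.131 and 1.66 ± 0.522 FPKM in the mutants, against 3.27 ± 0.988, 0.467 ± 0.0732 and 1.30 ± 0.372 in the controls.

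The Hcn genes did not separate the groups. Hcn3 had 26.2, 24.5 and 22.1 FPKM in the mutants and 23.0, 23.4 and 29.6 in the controls, and Pklr overlaps it. Hcn2, the cyclic AMP-sensitive form of many forebrain neurons, averaged 14.2 ± 1.49 FPKM in the mutants and 13.8 ± 1.34 in the controls (SD, n = 3 each). Hcn4, the pacemaker form of the heart, averaged 14.1 ± 1.42 FPKM in the mutants and 14.9 ± 1.08 in the controls.

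By family, the median log2 fold change ran from -0.17 for the T-type calcium channels to 0.13 for the Kcnh genes. With each library left out in turn, the family medians of the high-voltage calcium channels ran from -0.17 to -0.09 and those of the Kcnh genes from 0.028 to 0.17. Those of the T-type calcium channels, the calcium beta and the sodium beta subunits stayed below 0, and the medians of the other 6 families took both signs. On scaled counts the medians were -0.050 for the high-voltage calcium channels, -0.096 for the T-type channels and 0.24 for the Kcnh genes, each more than 1.5 times from its FPKM value. The calcium beta, Kcna and Kcnb to Kcnd medians moved as much, to -0.061, 0.016 and 0.038, against -0.024, 0.037 and 0.023 on FPKM. The summed FPKM of the high-voltage calcium alpha subunits was 99.1 ± 6.38 in the mutants and 108.1 ± 6.29 in the controls (SD, n = 3 each).

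Other genes of these pathways came from lists chosen with the earlier results known. Among 31 further pore-forming genes, 18 were tested, and none had an unadjusted p under 0.05, beside 5.65% of all genes tested. Among those with the smallest p were the silent potassium subunits Kcng1 and Kcng2, with log2 fold changes of -0.11 and 0.40. Of 24 auxiliary genes, 17 were tested and none passed the adjusted threshold. At an unadjusted p under 0.05, 1 was higher, beside 2.65% of all genes tested. It was Dpp10, a partner of Kcnd channels, with 3.58 ± 0.222 FPKM in the mutants and 2.83 ± 0.406 in the controls (SD, n = 3 each; unadjusted p = 0.0477, adjusted p = 0.858, limma). Next came Kcnab1, a Kcna partner (log2 fold change -0.49, unadjusted p = 0.0940), and Cacng4 (-0.13, unadjusted p = 0.116), both with adjusted p above 0.88 in limma.

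Of 27 calcium-activated, leak and inward rectifier potassium channel genes, 23 were tested and none passed the adjusted threshold. At an unadjusted p under 0.05, 2 were higher, beside 2.65% of all genes tested, and none was lower. Kcnk13, a leak channel, averaged 0.867 ± 0.0638 FPKM in the mutants and 0.468 ± 0.129 in the controls (unadjusted p = 0.0235, adjusted p = 0.826, limma). Kcnj3, an inward rectifier opened by G proteins, averaged 1.146 ± 0.126 FPKM in the mutants and 0.670 ± 0.240 in the controls (unadjusted p = 0.0387, adjusted p = 0.858, limma). Kcnmb4, a subunit of calcium-activated channels, averaged 5.58 ± 0.348 FPKM in the mutants and 4.72 ± 0.413 in the controls. All 3 values are means ± SD of 3 libraries each.

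All 12 genes of the axon initial segment and nearby axon, where sodium and Kv1 channels cluster, were tested, and none passed the adjusted threshold. Cntnap2, whose protein holds Kv1 channels beside the node of Ranvier, had 69.5, 64.1 and 62.0 FPKM in the mutants and 49.7, 53.0 and 42.99 in the controls. All mutant libraries were above all controls, and the log2 fold change was 0.43 ± 0.09 (SE, unadjusted p = 0.00358, adjusted p = 0.579, limma). Fgf12, which binds the tail of sodium channels, had 12.4, 14.9 and 10.5 FPKM in the mutants and 9.05, 9.61 and 9.001 in the controls. Its groups did not overlap either, at a log2 fold change of 0.42 ± 0.13 (SE, unadjusted p = 0.0180, adjusted p = 0.795, limma). These were the 2 of the 12 that were higher at an unadjusted p under 0.05, beside 2.65% of all genes tested, and none was lower. The groups were apart upwards for 5.33% of all genes. Nrcam, an adhesion protein of the segment, had a log2 fold change of -0.07, and Ank3, its scaffold, averaged 104 ± 3.64 FPKM in the mutants and 103 ± 3.84 in the controls (SD, n = 3 each; named after its value was seen).

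Marker genes of the cells in the dissection were set beside these results. The summed FPKM of 10 indirect pathway genes was 118 to 147 in the mutants and 258 to 292 in the controls, while that of the 43 channel genes was 769 to 865 in the mutants and 814 to 828 in the controls. The groups were apart for the indirect pathway sum and overlapped for the channels. The 10 genes include Sp9, the floxed gene itself, and were chosen with earlier results known, so their sum is not an independent contrast. Of those 10 genes 8 were lower at an unadjusted p under 0.05, beside 2.99% of all genes tested. Past the adjusted threshold were 2 of them, beside 0.0600% of all genes (limma). The exceptions were Drd2 itself, with 44.4 ± 1.97 FPKM in the mutants and 45.0 ± 3.25 in the controls, and Six3, with 28.2 ± 4.70 FPKM in the mutants and 26.8 ± 4.01 in the controls (SD, n = 3 each). Of the 12 genes of all neurons, 3 were lower at an unadjusted p under 0.05, beside 2.99% of all genes, and none was higher. These were Nefm, Map2 and Nefl, all with adjusted p = 0.858 (limma). The 12 genes summed to 2375 to 2474 in the mutants and 2383 to 2638 in the controls. The 14 genes listed for medial eminence interneurons summed to 536 to 633 in the mutants and 450 to 547 in the controls. All 13 that were tested had estimates above 0, where the median log2 fold change over all genes tested was -0.00016. Gad1, which is not particular to these interneurons, was among them, with 104 ± 4.34 FPKM in the mutants and 97.0 ± 11.1 in the controls (SD, n = 3 each). Pvalb, the marker of the interneurons that fire fastest in the adult, was listed at 0 in every library. The 12 cortical glutamatergic genes summed to 45.2, 16.2 and 78.7 in mutant replicates 1 to 3 and to 31.0, 31.5 and 14.0 in control replicates 1 to 3. Mutant replicate 3 was highest for these genes and control replicate 3 lowest, and all 10 that were tested had estimates above 0. How far interneuron or cortical RNA entered the values of the channel genes with higher mutant means, Kcna5 among them, was not tested.

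**Figure D5:**
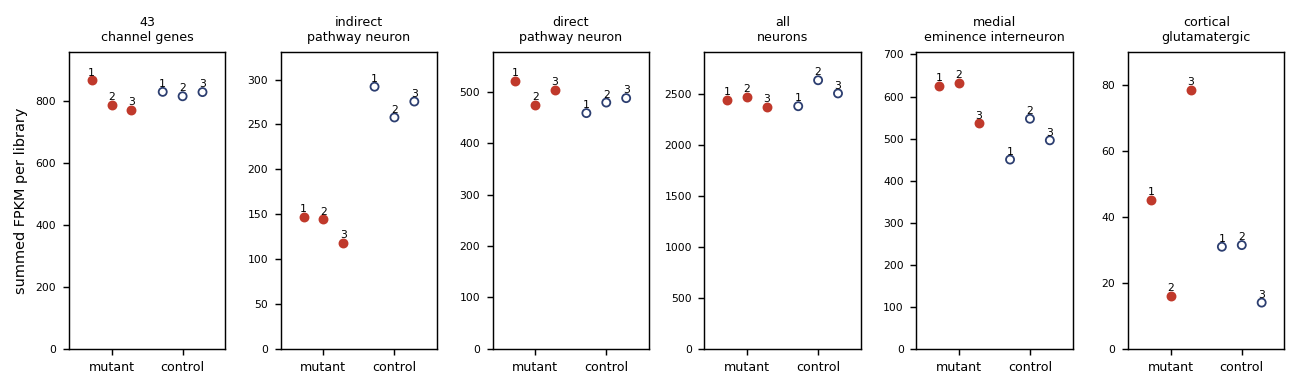
Summed FPKM per library of the 43 channel genes and of 5 marker lists, with mutants left, controls right and replicate numbers beside the points. The sum of indirect pathway genes, Sp9 among them, separates the groups, the channel sum does not, and the cortical sum is highest in mutant replicate 3.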

How the data were processed

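Total RNA of newborn striatum was sequenced in 3 mutant and 3 control libraries. The authors deposited 1 table with an FPKM column and a count column per library, per the file headers. Per the submitters' processing notes, the tools were TopHat and Cufflinks 2.1.1 and the build GRCm38.p4. Which annotation was used, and how strand and multiply mapped reads were handled, is not given in the sources used here. The deposited count columns are not whole and were treated as a signal, called scaled counts: they rise in steps of 0.970 to 1.15 depending on the library, and divided by that step 97.7 to 97.9% of the values over 0.01 came within 0.1 of a whole number, taken as fragments. No count test was run.

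Symbols came from GENCODE M21 and matched 46483 of 47062 identifiers, and positions are from that release on GRCm38. Promoter windows are from RefSeq. The main model, in limma 3.58.1 (R 4.3.3), took log2(FPKM + 0.5) and a variance trend, with no covariates. It covered the 16666 genes whose mean FPKM reached 0.5, and its tests were two-sided, at an adjusted p of 0.05. Fold changes on that scale understate those of low genes. Scaled counts entered as log2(value + 1), for the 16125 genes whose mean reached 10. Standard errors, intervals and p-values come from these fits over all genes. The FPKM fit was also run on simulated libraries with known fold changes and a single fixed dispersion. These lacked the sex and cortical differences between libraries seen here, and no result is drawn from them.

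Members and lists were chosen with earlier results of these data known. Any of the 43 members could be named; from other lists, genes past the adjusted threshold and otherwise the 3 with the smallest p. Some genes of these lists are not reported here. Scn9a and Ank3 were named after their values were seen. Alternatives were other pseudocounts, filters and scalings, the replicate number as a block, the scaled counts and each library left out. Genes with few fragments are the least precise.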

Additional observations from a re-analysis of the deposited data

How the results depend on the processing

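No channel gene passed an adjusted p of 0.05, and none met the study's 2-fold rule, under any alternative run; the lowest adjusted p of any member was 0.272 (limma, scaled counts). The count at an unadjusted p under 0.05 was 1 as reported, 0 with a mean FPKM of at least 1, 2 when a mean scaled count of at least 10 was also asked for, 2 with quantile normalization, 5 on scaled counts (4 higher, 1 lower; 11.6% beside 6.42% of all genes) and 1 to 4 when single libraries were dropped. It was 4 on dropping mutant replicate 3 or control replicate 2, 2 on dropping mutant replicate 1, mutant replicate 2 or control replicate 1, and 1 on dropping control replicate 3. The share of all genes under that p was 6.37% and 7.72% in the first 2 of these fits, 4.75%, 4.75% and 6.33% in the next 3, and 3.85% without control replicate 3. The median log2 fold change of the members ran from -0.080 to 0.0080 with 1 library left out, the highest value without mutant replicate 3. With the replicate block the count at an unadjusted p under 0.05 was 1 and the median -0.04; deviations of same-numbered libraries had correlations of 0.0025, 0.037 and 0.043, so the numbers were not taken as pairs.

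Kcna5 kept its sign in each alternative that tested it, with log2 fold changes from 0.42 to 0.87 and adjusted p of at least 0.416 (limma). Of 641 member values, 25 had the opposite sign to the reported one, and 28 members had none. On scaled counts these were Cacnb4 (-0.025) and Kcnb2 (0.038). With 1 library left out the log2 fold changes ran from -0.054 to 0.26 for Scn1a, -0.13 to 0.0035 for Scn3a, -0.091 to 0.016 for Scn8a, -0.14 to 0.018 for Cacna1b, -0.043 to 0.044 for Cacnb3, -0.22 to 0.63 for Cacnb4, -0.18 to 0.066 for Cacna2d3, -0.14 to 0.12 for Kcna1, -0.081 to 0.038 for Kcna3, -0.089 to 0.26 for Kcna4, -0.044 to 0.024 for Kcnb2, -0.0054 to 0.041 for Kcnc1, -0.018 to 0.12 for Hcn2, -0.12 to 0.057 for Hcn3 and -0.13 to 0.0026 for Hcn4. The cause was not tested. The planned edgeR and DESeq2 fits were not run, because the count columns are not whole.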
